A study of Mus musculus with 9 samples.

Results

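Interferon sensors, signal carriers and induced genes were followed in preSC, preneoplastic neuroendocrine cells from mouse lung, with and without a retrovirus carrying a MYC family gene. The genes were chosen by name: the sensors Ifih1 and Ddx58, the signalling genes Stat2, Irf9, Irf7 and Irf1, and the induced genes Ifit2, Ifit3 and Isg15. Every probe set that names only 1 of these 9 genes was read on each array, which gave 11 of the 45101 probe sets of the array. Of the 9 genes, 8 had at least 1 such probe set, among 18193 genes that did. Isg15 lies on a probe set shared with another gene and was given no value.

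The 9 Affymetrix expression arrays fall into 4 groups. The transduced groups are preSC with retro-L-Myc virus (2 arrays), retro-C-Myc virus (2 arrays) and retro-N-Myc virus (2 arrays), and they are set against preSC with no such virus (3 arrays). All groups carry Rb/p53/p130 alleles, which are conditional in the mice and were acted on by Adeno-Cre virus in the lung, on a mixed C57BL/6 and 129/Sv background, and all were grown in culture without stroma. The labels say that the L-Myc cells had become transformed, and arrays of preSC given an empty retrovirus were not analysed here. The labels call the RNA of the L-Myc and preSC arrays polyA and that of the C-Myc and N-Myc arrays total, while a single extraction protocol names total RNA for all.

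Cells detect viral and misplaced self nucleic acid with cytoplasmic sensors. Ifih1 encodes MDA5, which binds long double-stranded RNA, and Ddx58 encodes RIG-I, which binds the ends of shorter RNA. Both signal through MAVS to switch on interferon genes. Secreted type I interferon then acts on its receptor, and a complex that includes STAT2 and IRF9 binds the interferon-stimulated response element (ISRE) in promoters of genes such as Ifit2, Ifit3 and Isg15. Sensor genes are themselves interferon-induced, so the pathway feeds back on itself. Interferon gamma acts through another element, the gamma-activated site (GAS), as in the promoter of Irf1.

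The start regions of the 2 sensors and of the 2 Ifit genes are shown because the sensors and Ifit2 carry most of the changes described below, while Ifit3, a textbook ISRE gene, was dim. The windows are from RefSeq on GRCm38.p6, run 5′ to 3′ on the gene's strand, and hold 250 bases before the listed start and 50 bases from it on. Capitals mark ISRE letters, GAAANNGAAA or TTTCNNTTTC, and GAS letters, TTCNNNGAA, which read the same on both strands.
Ifih1, chr2:62646206-62646505, minus strand: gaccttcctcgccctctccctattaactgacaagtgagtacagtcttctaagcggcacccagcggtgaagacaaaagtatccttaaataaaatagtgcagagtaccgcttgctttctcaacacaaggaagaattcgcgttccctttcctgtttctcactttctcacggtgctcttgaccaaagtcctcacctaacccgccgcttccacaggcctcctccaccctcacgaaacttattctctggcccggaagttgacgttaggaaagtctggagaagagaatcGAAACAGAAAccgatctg
Ddx58, chr4:40239776-40240075, minus strand: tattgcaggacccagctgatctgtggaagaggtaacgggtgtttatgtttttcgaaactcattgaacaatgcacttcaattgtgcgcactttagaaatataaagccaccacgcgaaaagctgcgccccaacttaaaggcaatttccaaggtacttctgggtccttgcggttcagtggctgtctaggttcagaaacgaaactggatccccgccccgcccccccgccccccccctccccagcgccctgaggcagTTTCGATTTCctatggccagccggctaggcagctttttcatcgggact
Ifit2, chr19:34550444-34550743, plus strand: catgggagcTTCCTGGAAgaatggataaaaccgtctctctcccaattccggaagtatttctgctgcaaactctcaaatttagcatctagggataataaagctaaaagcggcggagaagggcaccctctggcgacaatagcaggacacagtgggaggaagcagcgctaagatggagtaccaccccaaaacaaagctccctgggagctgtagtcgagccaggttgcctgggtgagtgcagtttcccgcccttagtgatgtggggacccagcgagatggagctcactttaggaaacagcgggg
Ifit3, chr19:34583279-34583578, plus strand: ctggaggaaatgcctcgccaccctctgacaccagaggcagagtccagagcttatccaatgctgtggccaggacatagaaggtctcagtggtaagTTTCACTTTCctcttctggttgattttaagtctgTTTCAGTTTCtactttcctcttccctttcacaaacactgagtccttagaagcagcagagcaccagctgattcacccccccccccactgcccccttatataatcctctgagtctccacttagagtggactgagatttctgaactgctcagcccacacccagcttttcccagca

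The ISRE letters stand 32 bases after the listed start of Ifih1 and 2 bases after that of Ddx58. Ifit3 has 2 matches, 156 and 122 bases before its listed start. The Ifit2 window shown holds no ISRE letters and 1 GAS match, 241 bases before the start, and the window of its second listed start holds neither. The listed starts used here lie 144 bases from the annotated gene end for Ifit2 and 410 bases for Ifit3, so these windows may not be the regions used in these cells. Of the 9 genes, 5 had ISRE letters in a window (Ifih1, Ddx58, Isg15, Stat2 and Ifit3), and Irf1 had a GAS match 90 bases before its first listed start. Among all 32851 mouse windows of this length, 3.44% held the ISRE letters and 8.3% the GAS letters. A match is a run of letters and no measure of binding.

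The values are RMA log2 intensities, on which a difference of 1 is a doubling. A probe set was tested if it exceeded the 40th percentile of an array (5.28 to 5.34) in at least 2 arrays, which 8 of the 11 probe sets did, covering 6 genes. Differences are group means, transduced minus preSC, with the standard error (SE) of a limma fit to all 9 arrays, and p-values are adjusted over the 29201 probe sets tested, with 0.05 as the threshold. The array is bulk RNA, so fewer cells with a transcript and less transcript per cell cannot be told apart. The replicates are called biological, but no label names separate cultures, so the p-values measure the spread between these arrays. That spread was uneven. The number of probe sets more than 2-fold apart was 13 for the N-Myc pair, 2252 for the L-Myc pair and 3035 for the C-Myc pair. Within preSC it was 47 between arrays 1 and 2, and 1909 and 1807 between array 3 and each of these.

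The preSC identity was checked with neuroendocrine genes. All 9 measured marker genes had a tested probe set, and Ddc, Uchl1, Insm1 and Chgb were the brightest. Their summed log2 level was 98.4 to 99.6 on L-Myc arrays, 94.8 to 97.7 on C-Myc arrays, 96.3 to 96.6 on N-Myc arrays and 101.1 to 103.3 on preSC arrays. The list went both ways. Of its 15 tested probe sets, 2 rose in each transduced group (13.3%), of Uchl1 and Syp. Under L-Myc, C-Myc and N-Myc 4, 6 and 8 fell (26.7%, 40% and 53.3%). Among all tested probe sets 11.6%, 15.1% and 17.3% rose, and 10.4%, 14.6% and 17.3% fell. The transduced arrays also stood apart from preSC in control probe sets. The 18S ribosomal RNA control read 8.22 to 9.27 on transduced arrays and 12.58 to 13.74 on preSC arrays, and the 5′ minus 3′ difference of the Actb control was -0.31 to -0.20 on transduced arrays and -0.85 to -0.62 on preSC arrays. The part of these differences in the results below was not tested.

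**Figure D1:**
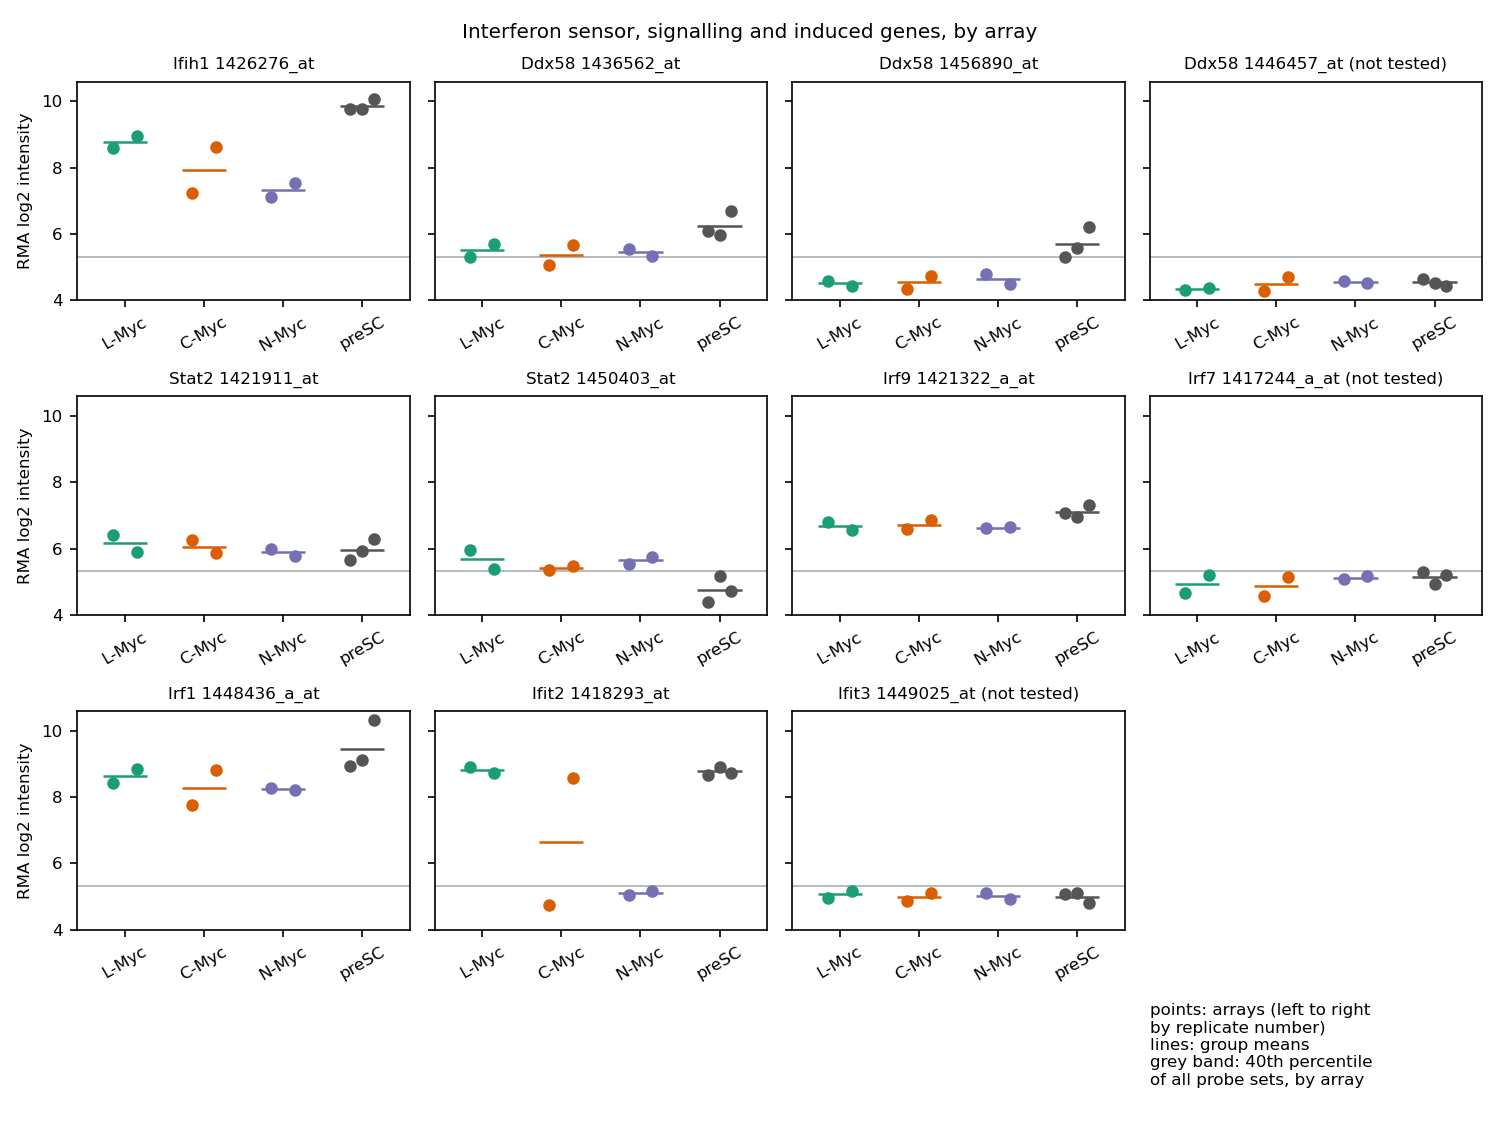
RMA log2 intensity (vertical axis) of the 11 probe sets of the 8 measured genes on each of the 9 arrays, with L-Myc, C-Myc, N-Myc and preSC from left to right. Points are arrays, coloured lines are group means, and the thin grey band is the 40th percentile of each array. Ifih1 lies at 7.10 to 8.96 on transduced arrays and 9.76 to 10.08 on preSC arrays, and Ifit2 is near 5 on C-Myc 1 and both N-Myc arrays.

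Ifih1, the MDA5 sensor gene on chromosome 2, was lower on every transduced array than on every preSC array. It read 8.58 and 8.96 in L-Myc, 7.23 and 8.61 in C-Myc, 7.10 and 7.53 in N-Myc, and 9.77, 9.76 and 10.08 in preSC (probe set 1426276_at). The group means were 8.77 ± 0.26 in L-Myc, 7.92 ± 0.97 in C-Myc, 7.31 ± 0.30 in N-Myc and 9.87 ± 0.18 in preSC (SD; n = 2, 2, 2 and 3). The preSC arrays lay within 0.32 of each other, whereas the C-Myc arrays lay 1.38 apart, C-Myc 1 beside the N-Myc arrays and C-Myc 2 beside the L-Myc arrays. Ifih1 fell by 2.56 in N-Myc (SE 0.37, adjusted p = 0.00266), which is 0.17 of the preSC level, and fell by 1.95 in C-Myc (SE 0.37, adjusted p = 0.00807), which is 0.259 of it. The L-Myc difference of -1.10 (SE 0.37) did not pass (adjusted p = 0.0742).

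The N-Myc and C-Myc calls for Ifih1 held when each of the 9 arrays was left out in turn. The C-Myc difference was -1.26 without C-Myc 1 and -2.64 without C-Myc 2. With preSC 1 and 2 averaged into 1 array and the N-Myc arrays into another, neither call held (adjusted p = 0.0587 for C-Myc and 0.0807 for N-Myc). The L-Myc difference, unchanged at -1.10, passed when either C-Myc array was left out (adjusted p = 0.00935), since the spread of the C-Myc arrays enters the shared error.

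Ddx58, the RIG-I gene on chromosome 4, was read by 3 probe sets of different brightness. Probe set 1436562_at read 5.30 and 5.70 in L-Myc, 5.06 and 5.66 in C-Myc, 5.55 and 5.33 in N-Myc, and 6.08, 5.96 and 6.70 in preSC. Every transduced array was below every preSC array, by a narrow gap next to preSC 2. Ddx58 fell by 0.89 in C-Myc on this probe set (SE 0.28, adjusted p = 0.0453), while the differences of -0.74 in L-Myc (SE 0.28, adjusted p = 0.0955) and -0.81 in N-Myc (SE 0.28, adjusted p = 0.0554) did not pass. The C-Myc call held in 2 of 16 alternative settings, and without C-Myc 1 the difference was -0.59 (adjusted p = 0.228).

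The second Ddx58 probe set, 1456890_at, was dimmer. It read 4.58 and 4.44 in L-Myc, 4.35 and 4.72 in C-Myc, 4.78 and 4.49 in N-Myc, and 5.29, 5.57 and 6.20 in preSC. It exceeded the percentile only on 2 preSC arrays, so it could enter the test only by being higher in preSC, and its calls are not separate support for a fall. On it Ddx58 fell by 1.18 in L-Myc (SE 0.27, adjusted p = 0.0195), fell by 1.16 in C-Myc (SE 0.27, adjusted p = 0.0165) and fell by 1.05 in N-Myc (SE 0.27, adjusted p = 0.0204). Each call was lost when 1 array of its own transduced group was left out: L-Myc without array 1 or 2 (adjusted p = 0.064 and 0.0973), C-Myc without array 1 (0.0896), and N-Myc without array 1 or 2 (0.0722 and 0.136). The third probe set, 1446457_at, read 4.26 to 4.69 over all arrays and was not tested.

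Among the signalling genes, Irf9 and Stat2 are partners in the ISRE-binding complex. Irf9 (chromosome 14, 1421322_a_at), its DNA-binding subunit, read 6.80 and 6.56 in L-Myc, 6.58 and 6.86 in C-Myc, 6.61 and 6.65 in N-Myc, and 7.08, 6.96 and 7.32 in preSC. All 6 transduced arrays were below all 3 preSC arrays, but the differences of -0.44, -0.40 and -0.49 under L-Myc, C-Myc and N-Myc (SE 0.16) did not pass (adjusted p = 0.0987, 0.106 and 0.0538). The N-Myc difference passed without either C-Myc array (adjusted p = 0.0433).

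Stat2 (chromosome 10), the subunit that activates transcription in that complex, showed no common direction between its probe sets. Probe set 1421911_at read 6.42 and 5.90 in L-Myc, 6.25 and 5.86 in C-Myc, 6.00 and 5.78 in N-Myc, and 5.67, 5.93 and 6.30 in preSC. The groups overlapped, and its differences of 0.20, 0.09 and -0.07 (SE 0.24) were smaller than their errors. Probe set 1450403_at read 5.96 and 5.39 in L-Myc, 5.34 and 5.47 in C-Myc, 5.55 and 5.76 in N-Myc, and 4.38, 5.16 and 4.72 in preSC, with every transduced array above every preSC array. On this dimmer probe set Stat2 rose by 0.93 in L-Myc (SE 0.26, adjusted p = 0.0396) and by 0.90 in N-Myc (SE 0.26, adjusted p = 0.0306), and the C-Myc difference was 0.65 (SE 0.26, adjusted p = 0.0956). It exceeded the percentile only on transduced arrays, so it could enter the test only by being higher there, and its calls are not separate support for a rise.

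These Stat2 calls were not stable. The L-Myc call held in 7 of 15 alternative settings and the N-Myc call in 9 of 15. Without preSC 1 the differences were 0.74 in L-Myc (adjusted p = 0.101) and 0.72 in N-Myc (adjusted p = 0.0804), and both calls were also lost without preSC 3. The L-Myc call was lost without L-Myc 1 (0.64, adjusted p = 0.201) or either N-Myc array (adjusted p = 0.0683), and the N-Myc call without N-Myc 1 or 2 (adjusted p = 0.102 and 0.169).

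Irf7 (chromosome 7, 1417244_a_at), which amplifies interferon production in many cell types, was dim on every array. Its values of 4.57 to 5.30 exceeded the percentile on 0 arrays and it was not tested. Irf1 (chromosome 11, 1448436_a_at), a transcription factor induced by interferon gamma, was bright. It read 8.44 and 8.85 in L-Myc, 7.76 and 8.81 in C-Myc, 8.28 and 8.21 in N-Myc, and 8.94, 9.13 and 10.33 in preSC. Every transduced array was below every preSC array, and preSC 3 was 1.29 above the mean of preSC 1 and 2. The differences of -0.82 in L-Myc, -1.18 in C-Myc and -1.22 in N-Myc (SE 0.45) did not pass (adjusted p = 0.233, 0.0845 and 0.0703). Leaving out C-Myc 2 moved the C-Myc difference to -1.70 (adjusted p = 0.0435), and without either C-Myc array the N-Myc difference had an adjusted p of 0.0499.

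Ifit2 (chromosome 19, 1418293_at), whose protein binds RNA and restrains translation in infected cells, had the widest range of the 11 probe sets. It read 8.92 and 8.73 in L-Myc, 4.73 and 8.57 in C-Myc, 5.03 and 5.17 in N-Myc, and 8.67, 8.92 and 8.74 in preSC. The L-Myc arrays and C-Myc 2 thus lay with preSC, while C-Myc 1 and both N-Myc arrays were below the 40th percentile. Ifit2 fell by 3.68 in N-Myc (SE 0.90, adjusted p = 0.0175), which is 0.0782 of the preSC level and, with the N-Myc values below the percentile, may understate the change. The L-Myc difference was 0.05 (SE 0.90, adjusted p = 0.978). The C-Myc mean of 6.65 ± 2.71 (SD, n = 2) described neither C-Myc array, and the difference of -2.13 (SE 0.90) did not pass (adjusted p = 0.114).

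The C-Myc arrays were 3.84 apart in Ifit2, and that spread sets the shared error. Without C-Myc 2 the C-Myc difference was -4.04 (adjusted p = 0.000286), without C-Myc 1 it was -0.21 (adjusted p = 0.433), and without either one the N-Myc difference had an adjusted p of 6.87e-05. The N-Myc call was lost without N-Myc 1 or 2 (adjusted p = 0.1 and 0.092), without preSC 2 (0.0526) and with the closest arrays averaged (0.193), at differences of -3.75 to -3.60. The labels do not say which culture gave each C-Myc array. Sftpc, the marker gene of alveolar type II cells, read highest on the 3 arrays where Ifit2 was low: 7.77 and 6.43 in L-Myc, 10.68 and 6.17 in C-Myc, 10.59 and 11.10 in N-Myc, and 8.42, 8.27 and 6.06 in preSC. These values are of the 1 of its 2 probe sets that was tested. Of 5 measured lung epithelial genes 4 had a tested probe set, and the summed level of the 5 was 28.6 to 30.4 in L-Myc, 28 to 32.7 in C-Myc, 33 to 33.4 in N-Myc and 28.7 to 31.4 in preSC. The sums include Sftpc, and the other listed genes did not follow it. Over all arrays Sftpb read 6.52 to 6.87, Foxj1 5.27 to 5.60 and Scgb1a1 3.75 to 4.09. Ager fell on its tested probe set, with differences of -0.92, -1.01 and -0.84 under L-Myc, C-Myc and N-Myc. The part of these genes in the Ifit2 result was not tested. Ifit3 (1449025_at), the neighbour of Ifit2 on chromosome 19, read 4.79 to 5.16 over all 9 arrays, was above the percentile on 0 of them and was not tested. A fall of Ifit3 from that level could not have been measured, and no array showed a rise above the percentile.

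**Figure D2:**
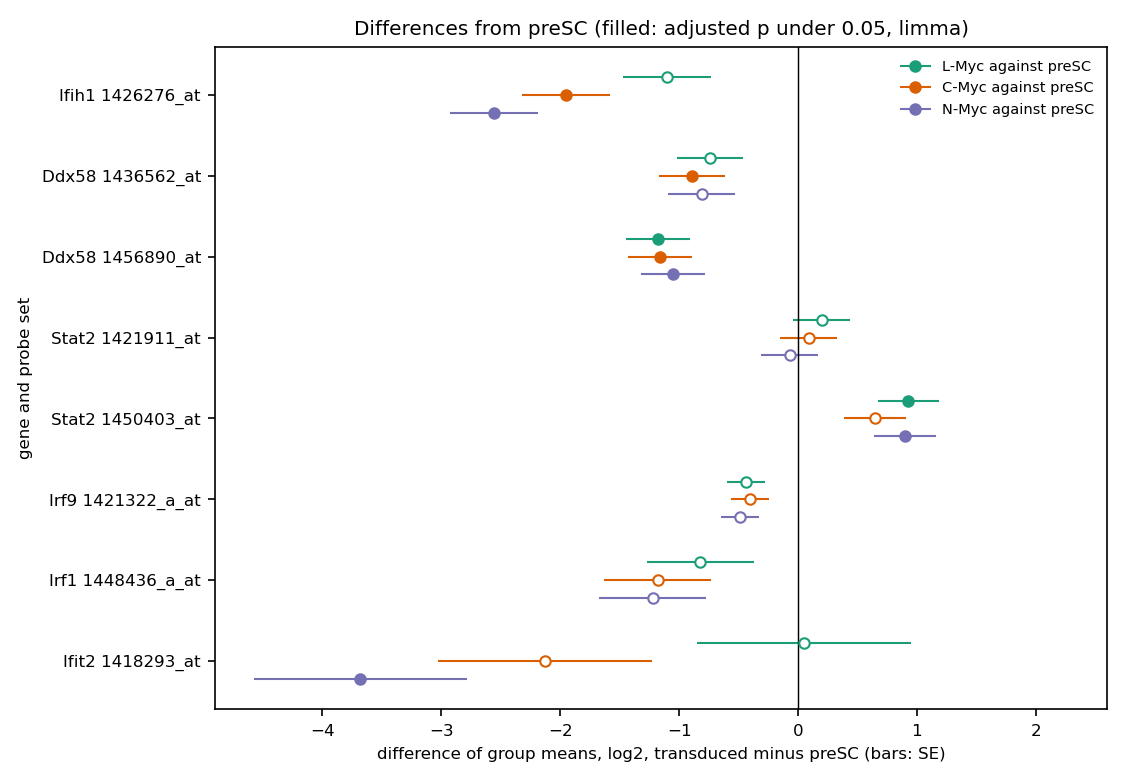
Difference of group means from preSC on the log2 scale (horizontal axis) for the 8 tested probe sets (vertical axis), with L-Myc, C-Myc and N-Myc from top to bottom in each row. Bars are SE from limma and filled points have an adjusted p under 0.05. The Ifih1 differences are -1.10, -1.95 and -2.56, and the Ifit2 differences 0.05, -2.13 and -3.68.

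Counted over the 8 tested probe sets, 1 was called higher (Stat2) and 1 lower (Ddx58) in L-Myc against preSC, where 22% of all tested probe sets were called. In C-Myc, 3 were called lower (Ifih1 and 2 of Ddx58) and 0 higher, against 29.7% called among all. In N-Myc, 3 were called lower (Ifih1, Ddx58 and Ifit2) and 1 higher (Stat2), against 34.7% called among all. At an unadjusted p under 0.05 the counts were 5, 7 and 7 of 8, beside 35.9%, 42.2% and 46.2% of all tested probe sets. Ddx58 1456890_at and Stat2 1450403_at passed the filter through preSC or transduced arrays alone. Among the other 6 probe sets, 0 were called in L-Myc, 2 were lower in C-Myc (Ifih1 and Ddx58) and 2 were lower in N-Myc (Ifih1 and Ifit2), with 0 higher, beside 21.3%, 28.9% and 33.7% called among all probe sets that passed the filter through both sides. Their median differences were -0.59, -1.04 and -1.01. The median difference of the 8 probe sets was -0.59 in L-Myc, -1.02 in C-Myc and -0.93 in N-Myc, beside -0.011, -0.006 and 0.006 over all tested probe sets. All 6 transduced arrays lay below all 3 preSC arrays at 5 of the 8 probe sets (Ifih1, both of Ddx58, Irf9 and Irf1), as they did at 18.6% of all tested probe sets, and at 4 of the 6 that passed the filter through both sides. They lay above at 1 (Stat2), as at 19.7% of all. The 3 comparisons share the preSC arrays and are not independent of each other.

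Between the transduced groups, 0 of the 8 probe sets passed in any of the 3 comparisons by limma, and at an unadjusted p under 0.05 there were 0 in C-Myc against N-Myc, 0 in L-Myc against C-Myc and 2 in L-Myc against N-Myc, beside 4.4%, 4.59% and 18.7% of all. Hardly any probe set of the array passed in these comparisons: 0.00342% were called in C-Myc against N-Myc, and 0% in L-Myc against C-Myc and in L-Myc against N-Myc. The order of Ifih1 means was N-Myc, C-Myc, L-Myc, preSC from low to high, and no difference between the transduced groups passed the threshold. Ifih1 was 1.46 higher in L-Myc than in N-Myc (SE 0.41, adjusted p = 0.155), 0.85 higher in L-Myc than in C-Myc (SE 0.41, adjusted p = 0.858) and 0.61 higher in C-Myc than in N-Myc (SE 0.41, adjusted p = 0.931). Ifit2 was 3.72 higher in L-Myc than in N-Myc (SE 0.99, adjusted p = 0.151), 2.17 higher in L-Myc than in C-Myc (SE 0.99, adjusted p = 0.858) and 1.55 higher in C-Myc than in N-Myc (SE 0.99, adjusted p = 0.931).

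For L-Myc against N-Myc, the error again depended on the C-Myc arrays. Fitted without either one, Ifih1 had an adjusted p of 0.013 and Ifit2 of 0.000147 at the same differences, and fitted on the L-Myc and N-Myc arrays alone Ifit2 had 0.0051 and Ifih1 0.0563. The C-Myc comparisons turned on which array stood for the group. With C-Myc 1 alone, L-Myc minus C-Myc was 4.09 for Ifit2 (adjusted p = 0.000577) and 1.54 for Ifih1 (adjusted p = 0.0337), and C-Myc minus N-Myc was -0.37 and -0.08. With C-Myc 2 alone, L-Myc minus C-Myc was 0.25 for Ifit2 and 0.16 for Ifih1, and C-Myc minus N-Myc was 3.47 (adjusted p = 0.00085) and 1.30 (adjusted p = 0.0573). A group of 1 array is assumed in these fits to vary like the others.

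The rest of the pathway was read from lists of 94 genes by role, of which 86 had a probe set of their own and 70 had a tested one, at 122 probe sets. In L-Myc 15 of the 122 probe sets fell (12.3%) and 6 rose (4.92%), where 10.4% of all tested probe sets fell and 11.6% rose. In C-Myc 26 fell (21.3%) and 7 rose (5.74%), where 14.6% of all fell and 15.1% rose. In N-Myc 33 fell (27%) and 8 rose (6.56%), where 17.3% of all fell and 17.3% rose. Of the 122, 4 passed the filter through preSC arrays alone (Dhx58, Ifi27l2a, Uba7 and Ube2l6) and 3 through transduced arrays alone (Batf2, Ifna1 and Tap1). Without these, 12 fell in L-Myc (10.4%), 23 in C-Myc (20%) and 29 in N-Myc (25.2%) among 115, beside 10.3%, 14.5% and 17.4% of all probe sets that passed through both sides. The median difference was -0.29, -0.41 and -0.41 under L-Myc, C-Myc and N-Myc. No pathway probe set passed between the transduced groups by limma. The number called among all 29201 tested probe sets depended on the arrays. Without preSC 2 it was 3824, 5544 and 6811 under L-Myc, C-Myc and N-Myc, beside 6438, 8671 and 10126 with all arrays. The number of pathway probe sets that fell moved in the same direction at the extremes given next and with the closest arrays averaged. With single arrays left out, it ran from 3 (without L-Myc 1) to 23 (without either C-Myc array) in L-Myc, from 11 (without preSC 2) to 36 (without C-Myc 2) in C-Myc, and from 7 (without N-Myc 1) to 39 (without either C-Myc array) in N-Myc. With the closest arrays averaged it was 1, 3 and 0. Of the 22 N-Myc calls of genes described below, 15 were lost without N-Myc 1 and 13 without N-Myc 2. Of the 10 L-Myc calls, 8 were lost without L-Myc 1, 5 without L-Myc 2 and 6 without preSC 2, and of the 18 C-Myc calls, 7 were lost without C-Myc 1 and 8 without preSC 2.

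**Figure D3:**
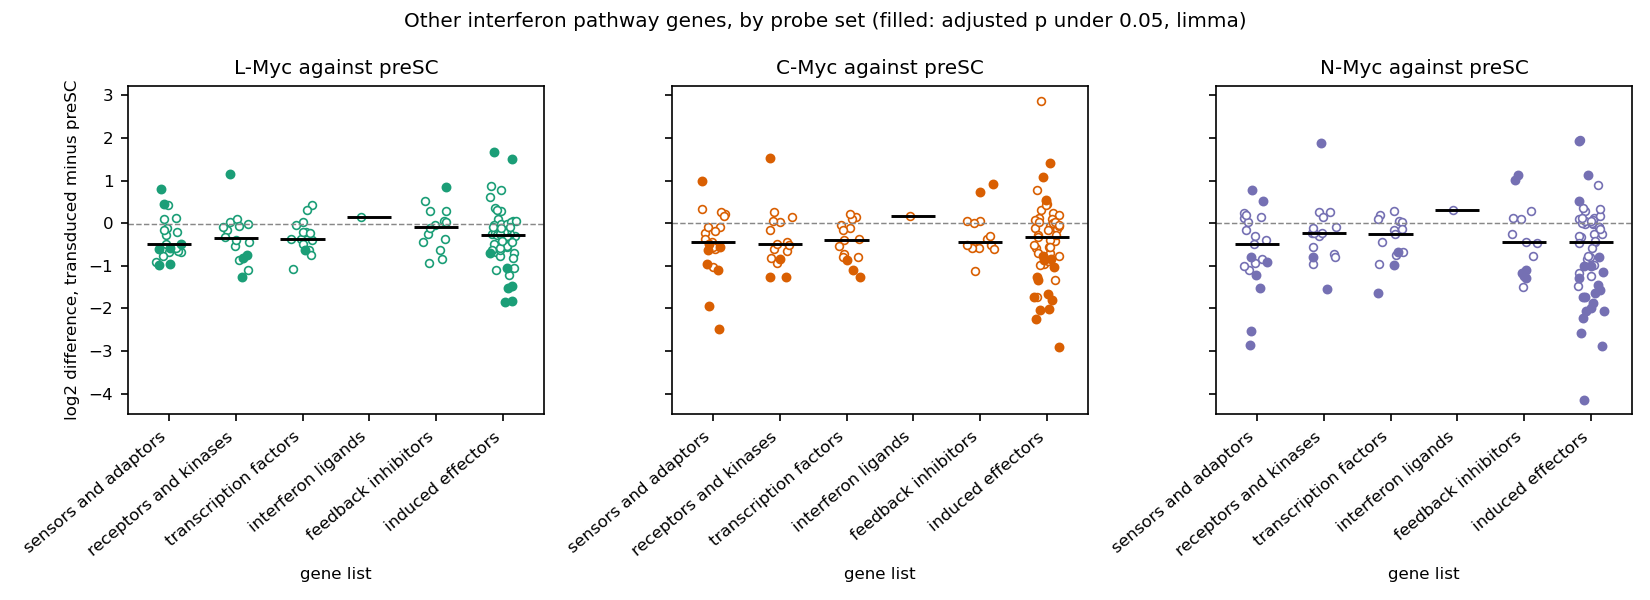
Log2 difference from preSC (vertical axis) of the 122 tested probe sets of the other pathway genes, by list (horizontal axis), with L-Myc, C-Myc and N-Myc panels from left to right. Points are probe sets, filled where the adjusted p is under 0.05, and black bars are list medians. The lowest points among the sensors in C-Myc and N-Myc are Cgas and the lowest among the induced effectors in N-Myc is Psmb8, at -4.14.

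Among the other sensors and adaptors (21 tested probe sets of 12 genes), 5 fell (23.8%) and 2 rose in L-Myc. In C-Myc 7 fell (33.3%) and 1 rose, and in N-Myc 6 fell (28.6%) and 2 rose. Of all tested probe sets, 10.4%, 14.6% and 17.3% fell under L-Myc, C-Myc and N-Myc, and 11.6%, 15.1% and 17.3% rose. The falls of sensors and adaptors in L-Myc were of Trim25, Mavs, Dhx58, Eif2ak2 and Tbk1, and the rises were on other probe sets of Trim25 and Eif2ak2. The Dhx58 probe set was above the percentile only on preSC arrays, so its calls are not separate support for a fall. Without it 4, 7 and 5 of 20 fell under L-Myc, C-Myc and N-Myc (20%, 35% and 25%). Among all probe sets that passed through both sides, 10.3%, 14.5% and 17.4% fell. Cgas, the sensor of cytoplasmic DNA, had the lowest differences of the list in C-Myc and N-Myc. Its brighter probe set read 9.41 and 9.14 in L-Myc, 6.23 and 8.72 in C-Myc, 7.08 and 7.15 in N-Myc, and 10.01, 10.08 and 9.81 in preSC. Like Ifih1, it was below preSC on every transduced array and lowest on C-Myc 1 and the N-Myc arrays. Cgas fell by 2.85 in N-Myc (SE 0.60, adjusted p = 0.0098) and fell by 2.49 in C-Myc (SE 0.60, adjusted p = 0.0181), and its L-Myc difference was -0.68 (adjusted p = 0.455). The second Cgas probe set fell too, with differences of -2.53 in N-Myc and -1.95 in C-Myc (SE 0.41, adjusted p = 0.00395 and 0.0113). On the brighter probe set the C-Myc difference was -1.25 without C-Myc 1 and -3.74 without C-Myc 2, its C-Myc call was lost without preSC 1 or preSC 2, and its N-Myc call without N-Myc 1 or N-Myc 2.

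Ikbke, a kinase that activates IRF3, fell by 1.51 in N-Myc (SE 0.30, adjusted p = 0.00752) and fell by 0.95 in C-Myc (adjusted p = 0.0451), the second in only 3 of 16 alternative settings. Mavs, the adaptor of both RNA sensors, differed between probe sets: 1439185_x_at fell by 0.95 in L-Myc (SE 0.17, adjusted p = 0.0071) and fell by 0.63 in C-Myc (adjusted p = 0.0261), while the brighter 1451176_at passed in no comparison, with differences of -0.27, -0.08 and 0.13. Trim25, a ubiquitin ligase that activates RIG-I, went both ways. Its brightest probe set, 1419879_s_at, fell, with differences of -0.99, -1.09 and -1.22 under L-Myc, C-Myc and N-Myc (SE 0.22), and 1426415_a_at rose by 0.80, 0.98 and 0.77 (SE 0.21). The third Trim25 probe set, 1425974_a_at, nearly as bright as the first, fell by 0.90 in N-Myc (SE 0.22, adjusted p = 0.0162). That call was lost without N-Myc 1 or N-Myc 2, and the differences of -0.49 in L-Myc and -0.56 in C-Myc did not pass. The probe set that rose was the dimmest of the 3, at 5.87 to 7.17. No single direction held for all Trim25 probe sets.

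Among receptors and kinases (16 tested probe sets of 8 genes), 3 fell (18.8%) and 1 rose in L-Myc and likewise in C-Myc. In N-Myc 2 fell (12.5%) and 1 rose. Of all, 10.4%, 14.6% and 17.3% fell under L-Myc, C-Myc and N-Myc, so the N-Myc share was below that of all. The falls were of Jak2, Ifnar2 and Tyk2 in L-Myc, of Jak2, Jak1 and Ifnar1 in C-Myc, and of Jak2 and Ifnar1 in N-Myc. The Ifnar1 calls were on its dimmer probe set, 1442222_at, at 5.00 to 5.64 on transduced arrays. Its brighter one, 1449026_at, passed in none, with differences of 0.03, -0.16 and -0.24 under L-Myc, C-Myc and N-Myc. Jak2, a kinase of the interferon gamma receptor, read 8.66 and 8.51 in L-Myc, 7.84 and 8.46 in C-Myc, 7.87 and 7.84 in N-Myc, and 9.17, 9.39 and 9.65 in preSC on its brighter probe set. Jak2 fell there, with differences of -0.82 in L-Myc (SE 0.22, adjusted p = 0.0324), -1.26 in C-Myc (adjusted p = 0.00542) and -1.55 in N-Myc (adjusted p = 0.00226), and its other probe set passed in none. The C-Myc call held in 16 of 16 alternative settings. Ifngr2, a chain of that receptor, rose by 1.15, 1.53 and 1.88 under L-Myc, C-Myc and N-Myc on 1423557_at (SE 0.23, adjusted p = 0.011, 0.00295 and 0.00138) and not on its other, 1423558_at (-0.17, 0.14 and 0.27). Of the type I receptor, Ifnar2 fell in L-Myc on its dimmest probe set of 3 (-1.26, adjusted p = 0.0279). The kinase Jak1 fell in C-Myc on 1 of 3 (-1.26, adjusted p = 0.0449), with -0.65 without C-Myc 2 (adjusted p = 0.213), and neither gene passed in the other comparisons with preSC.

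Among the other transcription factors (15 tested probe sets of 7 genes), 1 fell in L-Myc (6.67%), 3 in C-Myc (20%) and 3 in N-Myc (20%), and 0 rose, where 10.4%, 14.6% and 17.3% of all fell. Rela, the NF-kappa B subunit that helps switch on interferon beta, fell by 1.64 in N-Myc (SE 0.22, adjusted p = 0.00209) and fell by 1.26 in C-Myc (adjusted p = 0.00606), and its L-Myc difference was -0.62 (adjusted p = 0.0891). Its C-Myc call held in 16 of 16 alternative settings. Irf2, which competes with IRF1 for its sites, fell by 0.98 in N-Myc (SE 0.26, adjusted p = 0.0239). Irf3, the factor that the RNA sensors activate first, fell on 1435271_at, the dimmest of its 4 probe sets, with differences of -0.62, -0.86 and -0.67 under L-Myc, C-Myc and N-Myc (SE 0.18), and on none of the brighter ones. Stat3 passed on 1 of 4 probe sets, in C-Myc (-1.11, SE 0.33, adjusted p = 0.0384), with preSC 3 more than 1 above the other preSC arrays.

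The interferon genes themselves gave almost no signal. Of 6 measured ligand genes, 1 had a tested probe set, Ifna1, which read 5.18 to 5.52 on transduced arrays and 4.98 to 5.19 on preSC arrays, with differences of 0.15, 0.18 and 0.31 (SE 0.15) that did not pass (adjusted p = 0.5, 0.386 and 0.133). Ifnb1 read 4.60 to 4.97 over all arrays and was not tested. Of the feedback inhibitors (14 tested probe sets of 6 genes), 1, 2 and 2 rose under L-Myc, C-Myc and N-Myc (7.14%, 14.3% and 14.3%). Of all, 11.6%, 15.1% and 17.3% rose. Falls numbered 0, 0 and 4 (28.6% in N-Myc), where 10.4%, 14.6% and 17.3% of all fell. Irf2bp1, a co-repressor of IRF2, rose by 0.86, 0.93 and 1.14 (SE 0.17, adjusted p = 0.0109, 0.00649 and 0.00276). All 4 probe sets that fell in N-Myc were of Pias1, an inhibitor of cytokine signalling, with differences of -1.29 to -1.10. Adar, whose protein edits double-stranded RNA and so hides it from MDA5, rose on 1 of 3 probe sets by 0.74 in C-Myc and by 1.02 in N-Myc (SE 0.23, adjusted p = 0.0456 and 0.0126), and the brighter ones passed in no comparison. Its C-Myc call held in 5 of 15 alternative settings, with 0.38 without C-Myc 1 and 1.09 without C-Myc 2.

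The induced effectors were the longest list (55 tested probe sets of 36 genes). In L-Myc 6 fell (10.9%, near the 10.4% of all) and 2 rose. In C-Myc 13 fell (23.6%, beside 14.6% of all) and 3 rose, and in N-Myc 18 fell (32.7%, beside 17.3%) and 3 rose. Of all, 11.6%, 15.1% and 17.3% rose. Without the 4 probe sets that passed the filter through preSC or transduced arrays alone, 4, 10 and 15 of 51 fell (7.84%, 19.6% and 29.4%). Among all probe sets that passed through both sides, 10.3%, 14.5% and 17.4% fell. The rises were of Ifitm2 and Cmpk2 in each group, with Herc6 in C-Myc and Ifitm1 in N-Myc. Psmb8, an immunoproteasome subunit, read 8.10 and 8.80 in L-Myc, 4.97 and 8.54 in C-Myc, 5.44 and 5.59 in N-Myc, and 9.59, 9.40 and 9.99 in preSC. The split within C-Myc was that of Ifit2. Psmb8 fell by 4.14 in N-Myc (SE 0.87, adjusted p = 0.00976) and fell by 2.90 in C-Myc (adjusted p = 0.0397), the second in 3 of 16 alternative settings, with -1.11 without C-Myc 1 and -4.69 without C-Myc 2. Its N-Myc call was lost without N-Myc 1 or N-Myc 2.

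Xaf1, a pro-apoptotic interferon-induced gene, fell, with differences of -1.86, -2.24 and -2.89 under L-Myc, C-Myc and N-Myc (SE 0.51, adjusted p = 0.0378, 0.0154 and 0.00542). Its arrays read 5.14 and 6.27 in L-Myc, 4.49 and 6.16 in C-Myc, 4.76 and 4.58 in N-Myc, and 7.45, 7.28 and 7.97 in preSC, so the groups did not overlap with preSC. The L-Myc call was lost with any of 6 arrays left out, and the C-Myc call without C-Myc 1. Ifi27 fell on its probe set 1454757_s_at with differences of -2.04 in C-Myc and -2.58 in N-Myc (SE 0.54, adjusted p = 0.027 and 0.0101), against -0.70 in L-Myc (adjusted p = 0.4). There the C-Myc difference was -0.95 without C-Myc 1 and -3.14 without C-Myc 2, and the N-Myc call was lost without N-Myc 1 or N-Myc 2. On the brighter Ifi27 probe set, 1452956_a_at, only the N-Myc difference of -2.22 passed (SE 0.56, adjusted p = 0.0192). The differences there were -1.74 in C-Myc (adjusted p = 0.0507) and -0.23 in L-Myc (adjusted p = 0.81). Ifi27l2a fell, with differences of -1.82, -2.02 and -2.07 (SE 0.47, adjusted p = 0.0299, 0.0164 and 0.0132), but was above the percentile only on preSC arrays, at 6.84 and 6.57 on preSC 1 and 2 and 5.04 on preSC 3.

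Markers of immune cells, which express many of these effectors strongly, were mostly dim. Of 11 measured leukocyte genes, 5 had a tested probe set, and the summed level of the 11 was 56.9 to 61.9 in L-Myc, 57.8 to 63.4 in C-Myc, 61.2 to 61.6 in N-Myc and 56.2 to 60.6 in preSC. Ptprc, the pan-leukocyte gene, read 3.33 to 4.22 on its probe sets over all arrays, below the percentile on each. Of 9 tested leukocyte probe sets, 0 fell in any comparison with preSC, and 1 rose, Cd3e in N-Myc (11.1%). Of all tested probe sets, 10.4%, 14.6% and 17.3% fell under L-Myc, C-Myc and N-Myc, and 11.6%, 15.1% and 17.3% rose. Beside these shares, counts on lists this short say little about the cells present. Lyz2, the brightest of the leukocyte genes, read 10.99 and 6.44 in L-Myc, 12.31 and 6.76 in C-Myc, 9.78 and 10.01 in N-Myc, and 9.31, 10.09 and 5.61 in preSC, without a call. Of plasmacytoid dendritic cell genes, Siglech had no tested probe set. The 8 tested probe sets had 0 falls and 2, 3 and 3 rises under L-Myc, C-Myc and N-Myc (25%, 37.5% and 37.5%). All rises were of Tcf4, which is not confined to that cell type. Fibroblast, endothelial and lung epithelial lists had 3, 1 and 4 tested probe sets, with 0 calls in the first pair and 1 fall (Ager) in the third. The fibroblast gene Dcn split within groups on its tested probe set. It read 5.29 and 10.32 in L-Myc, 5.33 and 9.69 in C-Myc, 5.70 and 5.46 in N-Myc, and 6.59, 6.86 and 9.32 in preSC. With an SE of 1.70 for its differences from preSC, the lack of a call says little about Dcn.

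The genes closest to each measured gene in profile over the 9 arrays were taken by Pearson's r among the brightest probe sets of 12980 genes, as a description. Closest to Ifit2 were Ctsz, a lysosomal protease (r = 0.997), Ccnb2, a mitotic cyclin (r = 0.997), and Cxxc5 (r = 0.995). Ctsz read 12.34 and 11.94 in L-Myc, 3.69 and 11.90 in C-Myc, 4.20 and 3.97 in N-Myc, and 11.81, 11.84 and 12.27 in preSC. The same 3 arrays, C-Myc 1 and both N-Myc arrays, were low in Ifit2, Ctsz, Ccnb2 and Cxxc5, none of the last 3 being on the interferon lists. Closest to Ifih1 were Spata6 (r = 0.995), Zfp367 and Ddx6 (r = 0.994 each), and to Irf1 Itgae (r = 0.992), Myrfl (r = 0.99) and Tgfbr2 (r = 0.986). Closest to Ddx58 was Gna14 (r = 0.989), to Irf9 Inpp1 (r = 0.974) and to Stat2 Tacc3 (r = 0.923). These 9 points fall into 4 groups and share arrays, so a high r can reflect a single array or group.

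**Figure D4:**
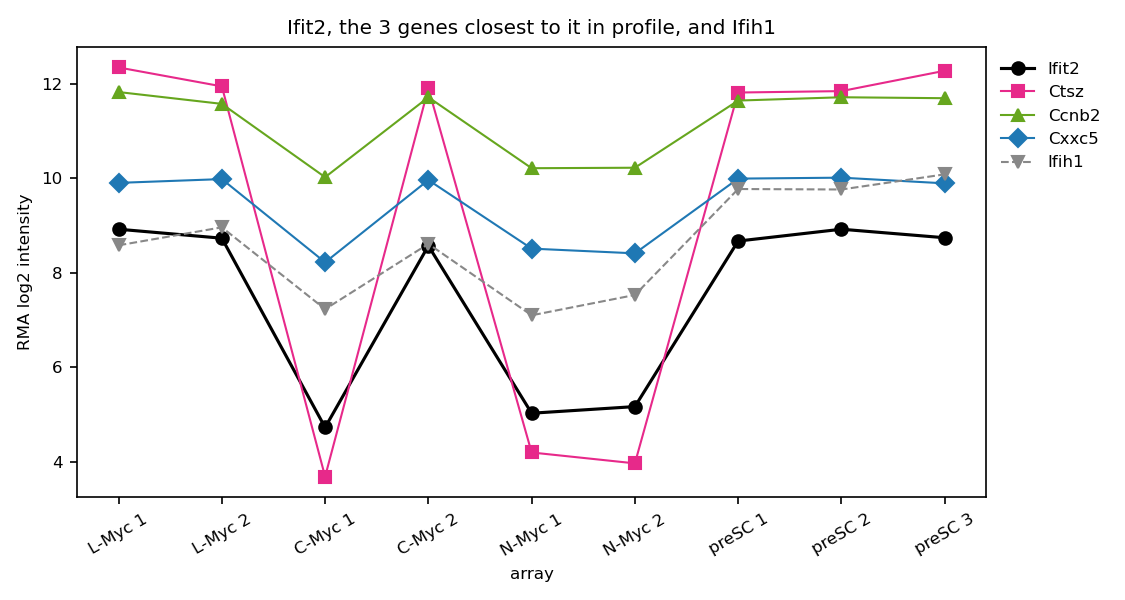
RMA log2 intensity (vertical axis) on the 9 arrays (horizontal axis) of Ifit2, of the 3 genes with the most similar profile and of Ifih1; lines join arrays only to guide the eye. Ifit2 and its 3 nearest genes are low on C-Myc 1, N-Myc 1 and N-Myc 2, and Ifih1 is in addition lower on L-Myc arrays and C-Myc 2 than on preSC.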

How the data were processed

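Cultured mouse cells gave RNA for 9 expression arrays, grouped by sample titles. The deposited log2 values, 1 per probe set and array, were made by the authors with RMA in the affy package and R 3.0.1, per the submitters' processing notes. RMA forces the arrays to a common distribution, so a shift shared by all transcripts cannot be seen, and differences between dim probe sets are compressed. Array medians were 6.02 to 6.07, so no further scaling was used. The number of arrays limits the precision.

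Probe sets were named through the platform annotation (34945 with 1 gene symbol, 932 with several and 9211 not listed), with symbols updated through RefSeq. Where a probe set lies on its transcript was not analysed here. Group means were fitted to all 9 arrays in R 4.3.3 with limma 3.58.1 (empirical Bayes; 5 residual degrees of freedom, two-sided, Benjamini-Hochberg adjustment). The fit was tested on simulated data. All probe sets of the 9 genes are given. Of the other pathway genes, up to 4 per list with the largest difference past the threshold are described with values, or up to 2 with the highest mean where none passed. Other genes named beside small counts, and Lyz2, Sftpc and Dcn array values, were picked after their values were seen. The genes and lists were chosen with earlier results of these data known. Some list genes are not reported here. Deviations of same-numbered arrays from their group means correlated at -0.64 to 0.61, which cannot show whether replicate numbers pair the arrays. In a group of 2 the deviations are mirror images, so among transduced groups replicate 2 repeats replicate 1. The negative values were of L-Myc 2 and C-Myc 2 with preSC 2, and preSC 1 and 2 lay close together. Alternatives were no filter, 1 probe set per gene, other scaling, only the groups compared, a replicate block, the closest arrays averaged, and each array left out. Counts without probe sets that passed the filter through preSC or transduced arrays alone were added after the data had been seen.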

Additional observations from a re-analysis of the deposited data

How the results depend on the processing

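Of 474 values of single interferon probe sets under the alternatives, 401 kept their direction and their side of the threshold, 42 lost a call, 21 gained one and 10 changed sign. The counts of called probe sets (2, 3 and 4 under L-Myc, C-Myc and N-Myc against preSC, and 0 between transduced groups) were 0, 1 and 2 with 1 probe set per gene and 0, 0 and 0 with the closest arrays averaged. The L-Myc count was 1 with replicate number as a block, which changed no other count by over 1.5 times, and L-Myc against N-Myc had 1 when only those groups were fitted. With single arrays left out the counts ran from 0 to 3 in L-Myc, 1 to 5 in C-Myc and 1 to 7 in N-Myc against preSC, 0 to 1 in C-Myc against N-Myc, 0 to 2 in L-Myc against C-Myc and 0 to 2 in L-Myc against N-Myc. The block leaves preSC 3 without a partner, and whether replicate numbers pair the arrays is not known. These counts are to be read beside those over the whole array. With 1 probe set per gene 1750, 3052 and 3744 of 12986 were called under L-Myc, C-Myc and N-Myc against preSC. In the main fit 6438, 8671 and 10126 of 29201 were called, and with the closest arrays averaged fewer in each.

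The sign changes were of Stat2 and Ifit2 against preSC and of Ifih1 and Ifit2 between C-Myc and N-Myc. Stat2 1421911_at in N-Myc was 0.10 with the replicate block, and with single arrays left out ran from -0.22 to 0.10 in N-Myc, from -0.06 to 0.46 in L-Myc and from -0.10 to 0.29 in C-Myc. Ifit2 in L-Myc ran from -0.05 to 0.14, and without C-Myc 2 C-Myc minus N-Myc was -0.08 for Ifih1 and -0.37 for Ifit2, against highest values of 1.30 and 3.47 without C-Myc 1.

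The other pathway genes were put through the same alternatives after the data had been seen. Falls numbered 15, 26 and 33 under L-Myc, C-Myc and N-Myc. With 1 probe set per gene they numbered 7 in L-Myc and 13 in C-Myc, with only the groups compared 10 in C-Myc, with the replicate block 8 in L-Myc, and with the closest arrays averaged 1, 3 and 0. Left-out arrays gave 3 to 23, 11 to 36 and 7 to 39. Of 780 values of called probe sets of the genes described, 588 kept their call, 192 lost it and 0 changed sign. Calls over all 29201 tested probe sets shifted too. They numbered 5206, 7663 and 8798 under L-Myc, C-Myc and N-Myc with the replicate block, and 3824, 5544 and 6811 without preSC 2. In the main fit they numbered 6438, 8671 and 10126. The cause of these shifts was not tested, and fits with fewer arrays have fewer degrees of freedom. Dim probe sets, those near the 40th percentile, limit what could be measured for Ddx58, Irf7, Ifit3 and the interferon genes.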

Other observations

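Some interferon-induced transmembrane genes, picked after their values were seen, did not follow the falls described. Ifitm2, a membrane protein that blocks virus entry, read 10.79 and 11.03 in L-Myc, 10.81 and 10.84 in C-Myc, 11.43 and 11.24 in N-Myc, and 9.59, 9.24 and 9.39 in preSC. It rose by 1.51, 1.42 and 1.93 under L-Myc, C-Myc and N-Myc (limma, SE 0.15, adjusted p = 0.001, 0.00103 and 0.0004), with every transduced array above every preSC array. Ifitm3, of the same family, split within groups: it read 4.07 and 9.75 in L-Myc, 8.29 and 9.52 in C-Myc, 8.04 and 7.92 in N-Myc, and 3.99, 4.33 and 9.79 in preSC. Its low arrays were L-Myc 1, preSC 1 and preSC 2, which are not the arrays that were low in Ifit2, and its differences of 0.87, 2.87 and 1.95 did not pass (adjusted p = 0.799, 0.319 and 0.487).

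Cmpk2, an interferon-induced mitochondrial kinase gene also picked after its values were seen, went both ways between probe sets. Probe set 1422095_a_at rose by 1.68, 1.09 and 1.13 under L-Myc, C-Myc and N-Myc (adjusted p = 0.00196, 0.00795 and 0.00621), and 1450484_a_at fell by 0.84 in C-Myc and fell by 1.01 in N-Myc (adjusted p = 0.0234 and 0.0106), against -0.30 in L-Myc (adjusted p = 0.354). Ifit1, of the same gene family as Ifit2 and Ifit3, read 4.30 to 4.94 on transduced arrays and 4.43, 4.38 and 5.58 in preSC, the highest on preSC 3, and was not tested.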
